A study of Mus musculus with 4 samples.

Results

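Tandem polyA sites are polyadenylation sites of the same gene that follow each other along its strand, so that cleavage at different sites gives mRNAs that differ in the length of the 3′ end. Here a gene was taken to have them when at least 2 listed sites carried its name on the same strand, the outermost sites lay 200 to 10000 bases apart, and its sites held at least 10 tags (sequenced fragments that mark an mRNA 3′ end) over 4 libraries. This gave 147 genes with 402 of 9297 sites (4.32%) and 3835 of 34672 tags (11.1%). The sites of each gene were ordered along the strand, and are called the most proximal (nearest the coding sequence), the most distal, and those between. Since the tag sum chose the genes, their levels are given as a description.

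The 4 libraries came from the CA1 neuropil of the mouse hippocampus, the layer beside the pyramidal cell bodies that holds dendrites, axons and glia. In cTag-PAPERCLIP the poly(A)-binding protein Pabpc1 carries a GFP tag only after Cre recombination, and RNA crosslinked to the tagged protein is purified and sequenced at its 3′ end. The genotype of every library was Camk2a-Cre x Pabpc1- cTag on C57BL/6, so the tag depended on the Camk2a promoter that drives Cre, and the labels name no treatment. By the study's methods, which describe the collection through a companion CLIP experiment, the mice were adult and the slices of all libraries lay in buffer with cycloheximide, which stalls ribosomes, during crosslinking. The study's methods state that each library pooled tissue of several mice; the libraries form 1 group, and a library from cell bodies was not analysed here.

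A 3′ end is made when the cleavage machinery recognises a signal hexamer, most often AATAAA or ATTAAA, and cuts the transcript a short way downstream before the poly(A) tail is added. A gene with several such signals can end its mRNA early or late. The longer 3′UTR holds more binding sites for microRNAs and RNA-binding proteins, and in neurons long 3′UTRs are known for carrying signals that affect transport into dendrites and local translation. An A-rich stretch of the transcript itself can also be retained or primed in 3′ end methods, which is why runs of A beside a site are reported below.

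The libraries held 5947 to 16017 tags, library 1 being the deepest, and 600 to 1636 tags at tandem sites. Tandem sites took 10.2%, 13.4%, 10.1% and 11.7% of libraries 1 to 4 (11.4% ± 1.54, SD, n = 4). A count of 0 allows up to 3 tags, or 0.0187% to 0.0504% of a library. Over lists of 8 marker genes per cell type, pyramidal neuron genes held 0.151% to 0.462% of a library, interneuron genes 0.0687% to 0.295%, astrocyte genes 0.0984% to 0.287%, oligodendrocyte genes 0.131% to 0.545%, endothelial and blood genes 0.0312% to 1.28%, and microglia genes 0 to 0.0187%. No site carries the name of the pyramidal markers Slc17a7, Spink8 or Camk2a, and the Camk2a sites appear under the name Mir6982. The pyramidal share, 108 tags in all, therefore leaves out the 215 tags under that name. RNA was purified through the tagged protein, so the marker shares do not give the make-up of the tissue. Cell number, RNA per cell and RNA carried along in the purification cannot be told apart here. The part of other cell types in the results below was not tested.

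The sequences around the sites on which the results turn are shown here, 30 bases each, 5′ to 3′ on the strand of the gene, read from the RefSeq copy of GRCm38, the mm10 assembly that the submitters name. The genes of the next lines had nearly all tags at one end of their 3′UTR. Capitals mark the AATAAA or ATTAAA nearest the listed position, and a line without capitals has neither within 50 bases of the listed position and is centred on that position.
Kif5a most proximal, chr10:127228267-127228296, minus strand: tactctgtatctatctatcagaagctgctg
Kif5a most distal, chr10:127225699-127225728, minus strand: aaatatctttaaAATAAAataacttcgatg
Adcy1 most proximal, chr11:7174265-7174294, plus strand: cttgataaaattAATAAAgagcaaggatgg
Adcy1 most distal, chr11:7178467-7178496, plus strand: ttatttaacaaaAATAAAggagaaaaattg
Hpcal4 most proximal, chr4:123194218-123194247, plus strand: tacacaaaatttATTAAAgcaaaagtcatt
Hpcal4 most distal, chr4:123194671-123194700, plus strand: ccactgacaatgAATAAAaggtgtgactgt
Agap2 most proximal, chr10:127092520-127092549, plus strand: catggggtagagggagaaggattggaacag
Agap2 most distal, chr10:127093134-127093163, plus strand: atcttaacagcaATTAAAgagcaagtgatt
Calm3 most distal, chr7:16915381-16915410, minus strand: tcaatgttttccAATAAAatacagtgacta
Purb most distal, chr11:6467609-6467638, minus strand: atgtttgtaacaAATAAAgtatgcggaaaa
Dlg4 most proximal, chr11:70045493-70045522, plus strand: ttcttttgagagagtgaaaggaagagacag
Dlg4 most distal, chr11:70047501-70047530, plus strand: taattaaaaaaaATTAAAttcactcgagtg
Chn1 most proximal, chr2:73612346-73612375, minus strand: agttattaatttATTAAAtttggcttttag

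The next lines belong to genes whose sites changed in share from library to library. Here capitals mark the signal hexamer or, at each most proximal site, the nearest run of at least 6 A downstream of the listed position.
Camk2n1 most proximal, chr4:138457067-138457096, plus strand: aacaaaagttAAAAAAAAAcacacaaaaag
Camk2n1 site 3 of 4, chr4:138458109-138458138, plus strand: tctccagtgtacAATAAAgaactcttcctg
Actb most proximal, chr5:142903718-142903747, minus strand: cttgcgcagAAAAAAAAAAAAtaagagaca
Actb most distal, chr5:142903129-142903158, minus strand: tgacttgagaccAATAAAagtgcacacctt
Nrgn most proximal, chr9:37544936-37544965, minus strand: caaatactctcAAAAAAAgaaagaaaaaaa
Nrgn site 2 of 3, chr9:37544498-37544527, minus strand: tggaatgtgaatAATAAAgaggaatgtcta

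Over all 147 genes, more tags lay at the most distal site than at the most proximal one in every library. The most distal sites held 2096 tags (54.7%), the most proximal 950 (24.8%), and the 108 sites between them 789 (20.6%). Libraries 1 to 4 had 881, 559, 289 and 367 tags at the most distal sites and 431, 188, 173 and 158 at the most proximal ones. The distal share, which is the most distal tags as a percentage of those at both end sites, was 67.1% (95% Wilson interval 64.6% to 69.6%), 74.8% (71.6% to 77.8%), 62.6% (58.1% to 66.8%) and 69.9% (65.8% to 73.7%), with a mean of 68.6% ± 5.14 (SD, n = 4). Libraries 2 and 3 stood furthest apart, and their intervals did not overlap. The log2 ratio of most distal to most proximal tags averaged 1.14 ± 0.35 and was above 0 in 4 of 4 libraries (exact sign-flip permutation test, two-sided, p = 0.13, the smallest that 4 libraries allow; 0.167 after adjustment over 4 such tests). All intervals cover the error of counting alone, since PCR copies of a molecule may each be counted.

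The distal share moved most when sites with runs of A, or the sites between, were treated differently. Kif5a alone gave 322 of the 2096 most distal tags (15.4%), and without it the share was 65.7% ± 4.12. By library it was then 62.5%, 69.1%, 61.8% and 69.5%, so that library 4 and not library 2 was highest. With each gene weighted equally the share was 66.2% ± 2.74. When sites with 6 A in a row within 50 bases downstream were left out, 91 genes still met the rule, the mean was 59.6% ± 12.7, and 1 library lay below 50%, at 46.5%. Counted over all sites of each gene, those between included, the most distal site took 54.1% ± 6.53 of tags, from 48.2% to 63.3%.

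**Figure D1:**
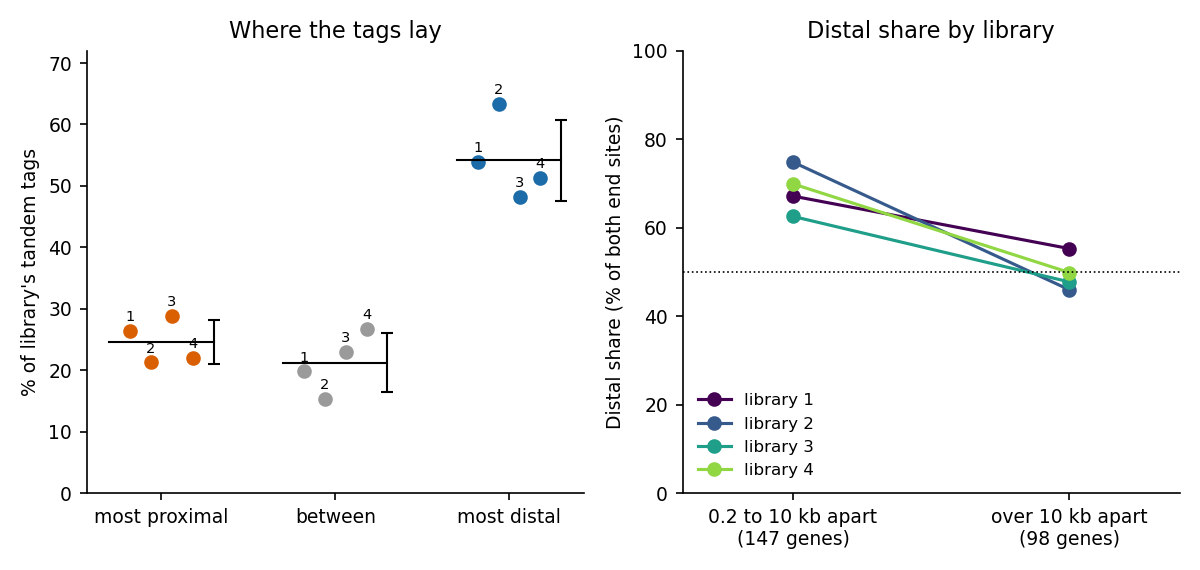
Left, percent of each library's tandem tags at the most proximal sites, those between and the most distal sites; numbered points are libraries, lines are means and bars are SD (n = 4). Right, distal share (%) per library for the 147 tandem genes and for 98 genes whose sites lay over 10 kb apart, where every line falls from left to right and the dotted line marks equal use of both ends.

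Single genes mostly had 1 leading site. The site with the most tags was the most distal in 83 genes (56.5%), the most proximal in 33, a site between in 28, and tied in 3. It held a median of 84.2% of the tags of its gene, over 90% in 58 genes and under 50% in 9. Of the 84 genes with 2 sites the distal one led in 60 (71.4%). Of the 63 genes with 3 to 9 sites a site between the ends led in 28 and the most distal in 23, so the end sites alone describe these genes incompletely. Many weaker sites were thinly covered, since 135 of the 402 sites had 1 tag in all 4 libraries together, 61 of them most proximal and 34 most distal. Tags in more than 1 library were found at 240 sites (59.7%), a share that the minimum of tags per gene raises, and 77 genes had at least 2 such sites.

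**Figure D2:**
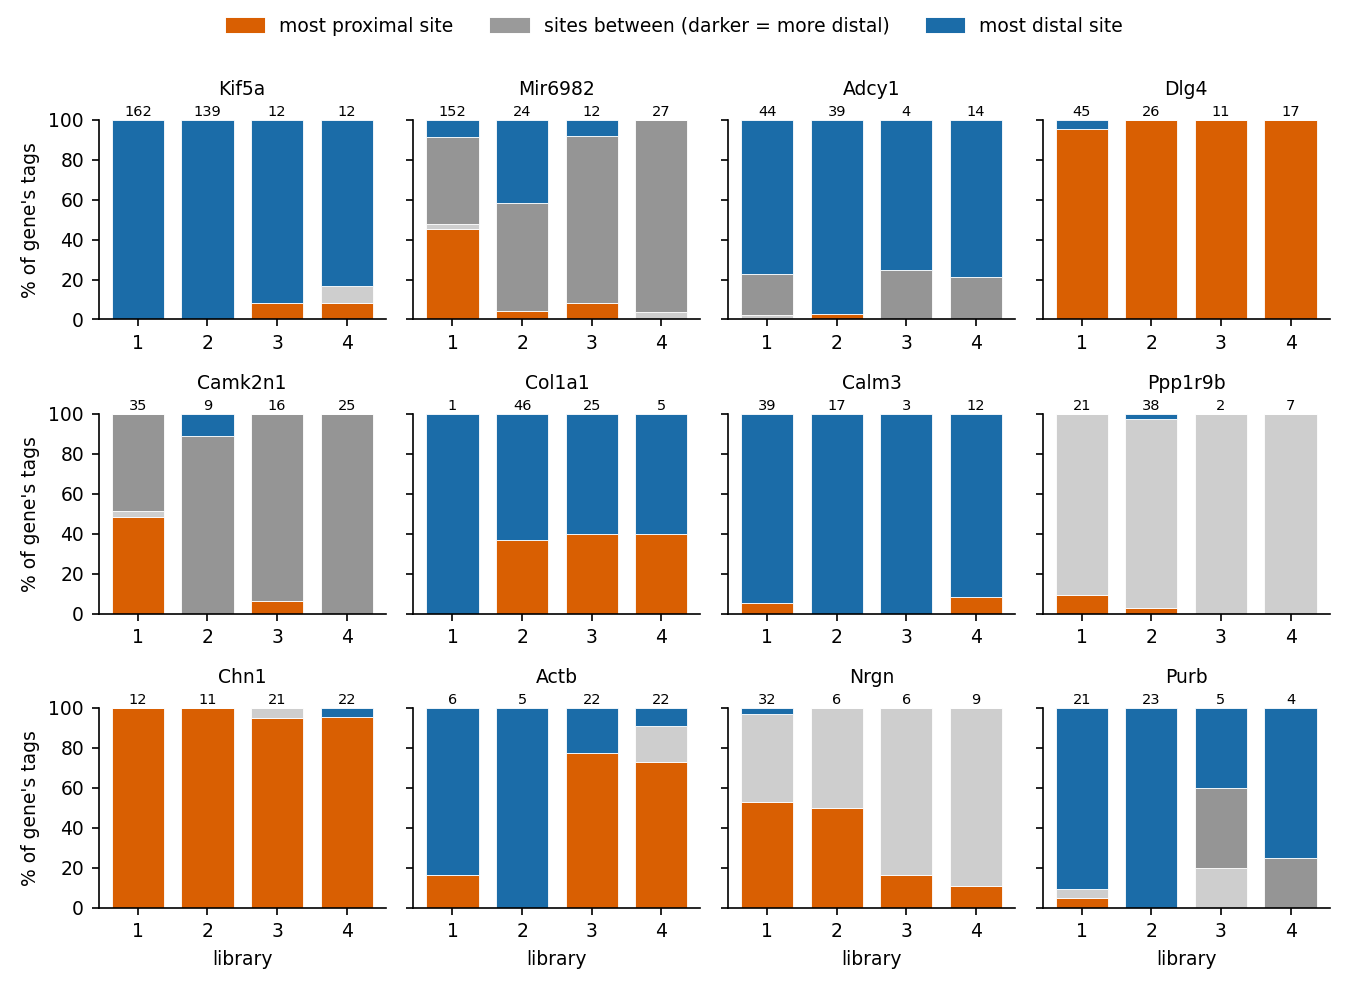
Percent of each gene's tags at each of its sites in libraries 1 to 4, for 12 of the tandem genes with the most tags; numbers above the bars are the gene's tags in that library. Kif5a, Adcy1 and Calm3 are mostly the colour of the most distal site and Dlg4 and Chn1 of the most proximal site in all libraries, whereas Mir6982, Camk2n1 and Actb change between libraries.

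To test single genes, the most distal and most proximal counts of all 256 genes with several sites and at least 10 tags were fitted together with edgeR's quasi-likelihood test, with library as a term. At an adjusted p under 0.05 the test called 15 of 256 genes (5.86%), with distal tags higher in 9 (3.52%) and proximal tags higher in 6 (2.34%). Of the 147 tandem genes, which are among the 256, 9 (6.12%) were called, 7 with distal tags higher (4.76%) and 2 with proximal tags higher (1.36%), so the share of called genes was near that over all genes tested. The median fitted log2 ratio was 1.48 over the tandem genes and 1.03 over all 256. The calls, though not the direction or rough size of the fitted ratios, changed when single libraries were left out. Without library 1, 4 of the 9 tandem genes stayed called (Kif5a, Adcy1, Dlg4 and Chn1), without library 4 only Kif5a did, and without library 2 or library 3 the edgeR test called no gene at all (96 and 36 of 256 had an unadjusted p under 0.05, against 99 with all 4 libraries). Over these fits with 3 libraries, the log2 ratios of the 7 genes with more distal tags ran from 3.91 (Calm3 without library 2) to 7.26 (Kif5a without library 3), and those of Dlg4 and Chn1 from -7.17 to -5.19.

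Among the genes that ended late, Kif5a, a heavy chain of the kinesin motor that carries cargo along microtubules, had the most tags. Its most distal site (chromosome 10, position 127225715, in the 3′UTR 19 bases before the annotated end of the gene) held 162, 139, 11 and 10 tags in libraries 1 to 4, against 0, 0, 1 and 1 at the most proximal site. Libraries 1 and 2 were far above libraries 3 and 4 in level, while the distal site led in all 4. The distal share was 99.4% (Wilson interval 97.8% to 99.8%) and the fitted log2 ratio 6.14 ± 1.21 (SE, edgeR adjusted p = 6.8e-05). The end that led has AATAAA beside the listed position, and the other has neither signal hexamer in the window.

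Adcy1, a calcium-stimulated adenylyl cyclase, had 34, 38, 3 and 11 tags at its most distal site and a single tag, in library 2, at the most proximal one 4197 bases upstream. Both sites carry AATAAA, so the difference of 5.95 ± 1.49 on the fitted log2 scale (SE, edgeR adjusted p = 0.0045) was between sites with the same hexamer. Site 3 of 4 held 9, 0, 1 and 3 tags. The whole 3′UTR to the last site is 8769 bases long.

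The remaining called genes with more distal tags were the calmodulin genes Calm3 and Calm2, whose protein is the calcium sensor that activates CaMKII, and Hpcal4, Agap2 and Purb. Hpcal4 encodes a neuronal calcium sensor related to hippocalcin. Agap2 encodes a GTPase-activating protein for Arf that is also known as PIKE, and Purb a nucleic acid binding protein found in RNA transport granules. Their most distal sites held 42 to 68 tags in all and their most proximal sites 1 to 3. The most proximal site of Calm2, with 1 tag, lay in an intron. Its call therefore does not compare a shorter and a longer form of one 3′UTR. Calm3 had 37, 17, 3 and 11 distal tags, Calm2 16, 4, 9 and 13, and Hpcal4 20, 5, 12 and 6, so that no library lacked them. The fitted log2 ratios lay between 4.42 (Calm3, SE 1.38) and 5.12 (Hpcal4, SE 1.59), with edgeR adjusted p from 0.033 to 0.038. With 1 to 3 tags at the weaker site these ratios have wide errors, and the lower Wilson limits of the distal share were 87.9% to 89.1%.

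The opposite pattern was called in Dlg4 and Chn1. Dlg4 encodes PSD-95, the main scaffold of the excitatory postsynaptic density, and Chn1 encodes chimaerin, a Rac GTPase-activating protein. Dlg4 had 43, 26, 11 and 17 tags at the proximal site (chromosome 11, position 70045508) and 2, 0, 0 and 0 at the distal one, 2003 bases downstream and 11 bases before the annotated gene end. The distal share was 2.02% (Wilson interval 0.556% to 7.07%), and the fitted log2 ratio was -5.74 ± 1.37 (SE, edgeR adjusted p = 0.0028). The proximal 3′UTR is 816 bases long and the distal one 2819. None of the 12 hexamers searched lies within 50 bases of the proximal Dlg4 site, although it held 97 of 99 tags, whereas the distal site has ATTAAA.

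Chn1 had 12, 11, 20 and 21 tags at its most proximal site, which carries ATTAAA, and a single tag at the most distal site, in library 4 (log2 ratio -5.57 ± 1.43, SE, edgeR adjusted p = 0.0052). Unlike Kif5a, its proximal tags did not fall in libraries 3 and 4. Of the 33 genes led by the most proximal site, others with synaptic roles were Dnm1, the dynamin of synaptic vesicle retrieval, with 4, 7, 1 and 4 proximal tags against 0, 0, 1 and 0 distal, and Syn2, a synapsin, with 6, 0, 1 and 2 against 1, 1, 0 and 0. Neither passed the edgeR threshold.

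**Figure D3:**
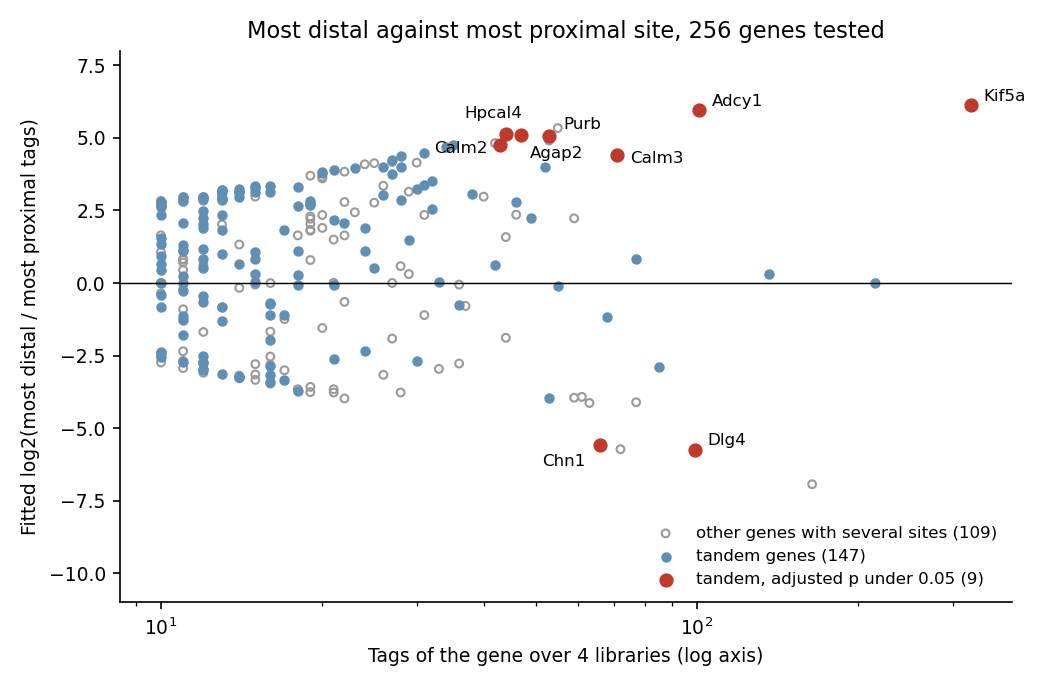
Fitted log2 ratio of most distal to most proximal tags (edgeR) against the tags of the gene over the 4 libraries, on a log axis, for 256 genes tested. Filled points are tandem genes, open circles other genes with several sites, and the named red points are the 9 tandem genes past the threshold; all of these have more than 40 tags, and genes with fewer tags spread on both sides of 0 without passing.

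Among genes led by a site between the ends, Ppp1r9b (spinophilin, a spine scaffold that binds actin and protein phosphatase 1) had 19, 36, 2 and 7 tags at its middle site, 24 bases before the annotated gene end, and 1 tag at a site 1174 bases past that end. App, the amyloid precursor protein, had 14, 3, 7 and 12 tags at site 3 of 4. Celf2, an RNA-binding splicing regulator, had the most sites, 9, spread over 6637 bases. Of its 36 tags, 21 lay at site 8 (5, 12, 3 and 1 in libraries 1 to 4), 1 at the last, and the others held 1 to 6 tags each. In each of these genes the last site held only 1 or 2 tags.

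A change of the leading site between libraries was seen in 8 of the 69 genes with at least 5 tags in more than 1 library. Among these were Actb, Cntn1, Epb41l1, Mir6982, Nrgn, Ppp3ca and Tmem30a. By the end sites alone, the distal share had Wilson intervals that did not overlap between some 2 libraries with at least 5 tags in 2 of 56 tandem genes (3.57%), Actb and Mir6982, against 4.12% over all 97 genes of the table that could be compared. The labels give no difference between the libraries, so this describes their spread.

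Mir6982, the name under which the sites of Camk2a, the alpha subunit of CaMKII, are listed, had 69, 1, 1 and 0 tags at its most proximal site, 66, 13, 10 and 26 at site 3 of 4, and 13, 10, 1 and 0 at the most distal. The most proximal site led narrowly in library 1 and was nearly empty in the other libraries, where site 3 led. With both end sites uneven over the libraries, the fitted log2 ratio was -0.02 ± 5.39 (SE). It was 1.76 without library 1 and -1.58 without library 2, so it does not show equal use of both ends.

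Camk2n1, an inhibitor of CaMKII, also had most of its proximal tags in library 1. Its most proximal site held 48.6% of the tags of library 1 (17 of 35), 0 of 9 in library 2, 6.25% in library 3 (1 of 16) and 0 of 25 in library 4. The most distal site, near the annotated gene end, had 1 tag, so that nearly all other tags lay at site 3. Nrgn (neurogranin), which binds calmodulin at low calcium, had 17, 3, 1 and 1 tags at the most proximal site and 14, 3, 5 and 8 at site 2, 23 bases before the gene end. Ppp3ca, the catalytic subunit of the calmodulin-dependent phosphatase calcineurin, had 10, 0, 1 and 1 tags at site 2 and 5, 1, 4 and 13 at site 4 of 6. Actb (beta-actin) changed the other way. The proximal site had 1, 0, 17 and 16 tags and the distal 5, 5, 5 and 2. Actb has many processed pseudogenes, and how tags with several matches were placed is not given in the sources used here.

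In 4 of these genes (Camk2n1, Mir6982, Nrgn and Actb) the most proximal site has a run of at least 6 A within 50 bases downstream, as does site 2 of Ppp3ca, and the site with the most tags in the other libraries carries AATAAA. This was looked for after the values were seen. Over all 402 tandem sites, the 125 with such a run (31.1%) held 23.6% of tandem tags in library 1 (Wilson interval 21.6% to 25.7%), 9.40% in library 2 (7.65% to 11.5%), 18.3% in library 3 (15.4% to 21.6%) and 16.1% in library 4 (13.6% to 18.9%). Library 1 was above libraries 2 and 4, and library 2 below the other 3, beyond these intervals. Without Mir6982, Camk2n1 and Nrgn the values were 19.6%, 9.36%, 18.9% and 17.3%, so that library 1 was close to libraries 3 and 4. At the 6744 other 3′UTR sites of the table the share ran from 11.9% to 15.6%. The difference between the tandem and the other sites was above 0 in 3 libraries and below 0 in library 2 (mean 2.68 ± 6.23 percentage points, exact sign-flip permutation test, two-sided, p = 0.5, 0.5 after adjustment).

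The sites also differed in sequence by their place in the 3′UTR, a property that the choice of genes did not use. AATAAA or ATTAAA lay within 50 bases on either side of 127 of 147 most distal sites (86.4%, Wilson interval 79.9% to 91.0%), of 64 of 108 sites between (59.3%, 49.8% to 68.1%) and of 69 of 147 most proximal sites (46.9%, 39.1% to 55.0%). The same motifs were found at 78.1% of all sites of the table with a known chromosome. Where a tandem site had one, it started within 10 bases of the listed position in 214 of 260 cases, with a median 1 base upstream, so listed positions lie at the signal and not at the cut. A search of the 50 upstream bases alone therefore finds few of them (25.9% of most distal and 19.0% of most proximal sites). By library, sites with either hexamer held 73.2%, 82.3%, 75.2% and 79.5% of tandem tags, against 86.2% to 89.4% at the other 3′UTR sites (mean difference -10.8 ± 3.55 percentage points, lower in 4 of 4 libraries, exact sign-flip permutation test, two-sided, p = 0.13, 0.167 after adjustment). These sets are not alike, since 365 of the 402 tandem sites lie in a 3′UTR, and the tandem sites within 3′UTRs alone had 73.3%, 82.7%, 78.8% and 80.1%.

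Within a gene, 67 of 147 had a hexamer at the most distal site alone, 60 at both ends, 9 at the most proximal alone and 11 at neither. The distal end had more tags in 50 of the 67 (74.6%) and in 32 of the 60 with both (53.3%). Most proximal sites without either hexamer carried 1 of 10 weaker variants (AGTAAA or TATAAA or CATAAA or GATAAA or AATATA or AATACA or AATAGA or ACTAAA or AAGAAA or AATGAA) in 55 cases and no listed hexamer in 23. Proximal sites that led their gene had AATAAA or ATTAAA in 22 of 34 (64.7%, Wilson interval 47.9% to 78.5%, ties included) and those that did not in 47 of 113 (41.6%, 32.9% to 50.8%). At most distal sites the corresponding shares were 89.3% of 84 and 82.5% of 63.

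Runs of at least 6 A within 50 bases downstream, some of which overlap an AATAAA, followed the reverse order. They were found at 63 most proximal sites (42.9%, Wilson interval 35.1% to 50.9%), 43 sites between (39.8%) and 19 most distal sites (12.9%, 8.43% to 19.3%). Over all tandem sites this was 31.1%, against 12.8% of the 6744 other 3′UTR sites, 23.7% of all sites of the table and 38.3% of the sites of genes with sites over 10 kb apart, so such runs were not particular to tandem sites. A run with neither signal hexamer stood at 45 most proximal and 5 most distal sites. Among tandem sites with 1 tag, 45.2% had such a run, and among those seen in more than 1 library 23.8%. Whether tags at these sites mark true mRNA ends was not tested.

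**Figure D4:**
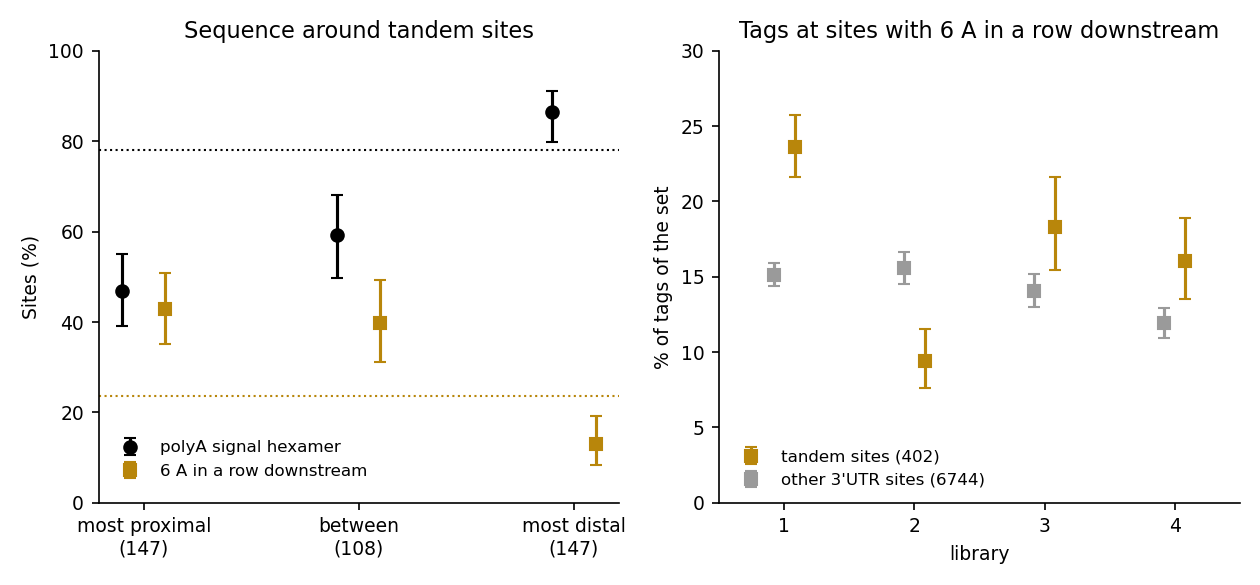
Left, percent of tandem sites with AATAAA or ATTAAA within 50 bases (circles) and with 6 A in a row within 50 bases downstream (squares) by place, with 95% Wilson intervals; dotted lines give the same for all sites of the table. Right, percent of tags at sites with 6 A in a row downstream per library, for tandem sites and the other 3′UTR sites, also with 95% Wilson intervals, with library 2 the lowest for the tandem sites.

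Motifs bound by known 3′UTR regulators differed less with place. TTTTAT or TTTTAAT, the cytoplasmic polyadenylation element bound by CPEB proteins, lay between 100 bases upstream and 50 downstream of 23.1% of most proximal, 24.1% of between and 28.6% of most distal sites, against 26.8% of the table. TGTANATA, the Pumilio motif, was found at 9.52%, 5.56% and 4.76%, against 6.86%. The intervals of the places overlapped for both. GC content over 100 bases on either side had medians of 38.8%, 34.8% and 38.3% at most proximal, between and most distal sites.

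By the GENCODE vM21 annotation of GRCm38, a 3′UTR held 365 of the 402 sites, noncoding exons 6, introns 5 and a coding exon 1, and 25 fell outside genes. Both end sites lay in the same 3′UTR exon in 110 genes, of which the distal site led in 75. In these, the length from the start of that 3′UTR exon was a median of 660.5 bases to the most proximal and 2481 bases to the most distal site, and the median gene was 3.24 times as long in its distal form. Of the 131 genes listed under the name of the vM21 gene at their sites, the most distal site lay within 100 bases of the annotated end in 98 and the most proximal in 5. The most distal site was past that end in 19 of them, as for Nrgn, with 1 tag 8763 bases beyond it. The span of the sites ran from 220 to 9251 bases, with a median of 1653. The distal share did not change clearly with it: it was 70.4% ± 6.30 for spans of 200 to 1000 bases (44 genes), 69.1% ± 5.53 for 1000 to 3000 (64 genes; 62.9% without Kif5a), and 66.4% ± 11.6 for 3000 to 10000 (39 genes).

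**Figure D5:**
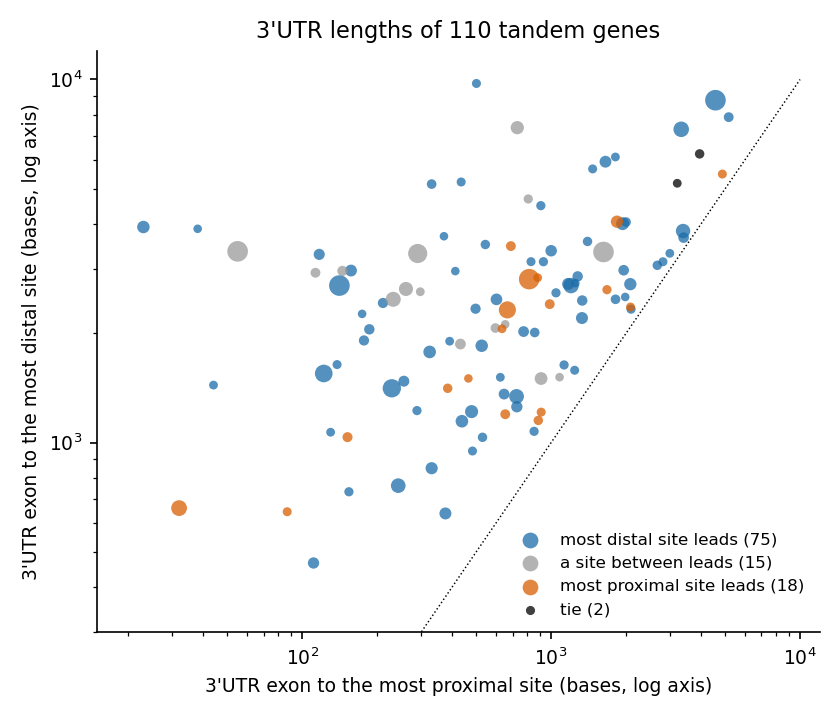
Length in bases from the start of the 3′UTR exon to the most proximal site (horizontal) and to the most distal site (vertical), both on log axes, for the 110 genes with both in the same exon; colours show which site leads and larger points have more tags. Points lie above the dotted line of equal length by construction, and the distance from it is the extension, a median of 3.24 times.

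Genes whose sites lay over 10 kb apart were the nearest other set under the rule, 98 genes with 290 sites. Their outer sites lay from 10688 bases (Pabpn1) to 4253170 bases (Tsn) apart. Sites grouped by name over such distances may not be ends of one gene, so the comparison is not like for like. The distal share of these 98 genes was 55.3%, 46.0%, 47.8% and 49.9% in libraries 1 to 4 (49.7% ± 4.03), near equal use of the outer sites. The share of the tandem genes was higher by 11.9, 28.8, 14.8 and 20.03 percentage points, in 4 of 4 libraries (mean 18.9 ± 7.45, exact sign-flip permutation test, two-sided, p = 0.13, the smallest possible; 0.167 after adjustment). Without Kif5a the mean difference was 15.98. AATAAA or ATTAAA stood at 63.1% of the distant sites and 64.7% of the tandem sites.

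In gene lists called by a function, tandem genes were found in 11 of 12, and 81 of the 147 were in a list. A listed gene need not have the function its list is called by, as with Arpp19 under cytoskeleton and motors. Since a minimum of tags was part of the rule, the share of list names that met it is a description. Genes of the postsynaptic density and CaMKII pathway gave 16 of 44 names in the table and 962 tags, of which 3 were called with more distal tags (Calm3, Agap2 and Calm2) and 1 with more proximal tags (Dlg4); the most distal site led in 8, a site between in 6 and the most proximal in 1. Shank1, a scaffold that binds the PSD-95 complex, had 11, 10, 0 and 2 tags at its most distal site and a single proximal tag. Homer2, a scaffold that links glutamate receptors to calcium stores, had 6, 0, 0 and 1 distal tags. The median fitted log2 ratio of the list was 1.48, the same as over all tandem genes to 2 decimals.

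Signalling kinases, phosphatases and G proteins gave 16 of 203 names, with Adcy1 and Hpcal4 called. Cytoskeleton and motor genes gave 11 of 95 names and 533 tags, with Kif5a called. Kif1a, a kinesin that carries synaptic vesicle precursors, had 8, 7, 5 and 6 distal tags and 1 proximal tag (edgeR adjusted p = 0.072). Myo5a, a myosin that moves cargo into spines, had 2, 1, 2 and 5 distal and 1, 0, 1 and 0 proximal tags. Membrane trafficking genes gave 8 of 166 names with a median log2 ratio of 3.004, among them Rtn1, an endoplasmic reticulum shaping protein, with 17, 3, 10 and 10 distal against 2, 0, 1 and 3 proximal tags, and Rab6b, a GTPase of Golgi transport, with 15, 12, 3 and 3 distal tags and 1 proximal tag. Neither was called.

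RNA-binding proteins and translation factors gave 11 of 135 names, with the most proximal site leading in 4, a site between in 4 and the most distal in 3. Their median log2 ratio was -0.72, below that of all tandem genes, and none was called. Elavl3, a neuronal protein that binds AU-rich elements, had 6, 1, 0 and 1 proximal and 4, 1, 0 and 0 distal tags. Eef1a2, the neuronal translation elongation factor, had 2, 7, 0 and 2 tags at the site 53 bases before its gene end, with the later sites past the annotated end. Rbfox2, a splicing factor, had 7, 5, 1 and 1 distal tags and 1 proximal tag.

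The other lists had few tandem genes. Synaptic vesicle and SNARE genes gave 6 of 40 names, with the distal site leading in 4, among them Syt11 with 7, 1, 3 and 7 distal tags. ATPases and ion pumps gave 3 of 24. There Atp1b1, a subunit of the sodium pump, had 14, 4, 4 and 6 tags at its distal site. Neurotransmitter receptors and ion channels gave 3 of 113 (Cacnb4 and Scn8a among them), energy metabolism 5 of 110, protein quality control and 14-3-3 proteins 3 of 204, and chromatin and transcription regulators 1 of 188. That gene, Zfp365, had 32, 14, 2 and 2 distal tags and 2 proximal tags. None of these lists held a called gene, and none of the 40 ribosomal protein names in the table met the rule.

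A few members are known from cells other than neurons or from repeats, and were uneven over the libraries. Col1a1, the fibrillar collagen of connective tissue, had 1, 46, 25 and 5 tags, with 0, 17, 10 and 2 at the most proximal and 1, 29, 15 and 3 at the most distal site. Sites named Rn45s, which lie in and beside a noncoding gene of ribosomal RNA repeats called Gm42418 in vM21, had 4, 0, 21 and 1 tags at 6 sites. Such repeats have many copies, so the position of these tags is uncertain. Aldoc, an astrocyte-enriched aldolase, had 7, 5, 0 and 1 proximal tags and 1 distal tag. Of the genes the study examined for localized 3′ ends or by in situ hybridization, 4 met the rule. Besides Ppp1r9b, Myo5a and Rbfox2, this was Anks1b, a scaffold of the postsynaptic density with 14 tags at 5 sites, where site 4 held 5, 0, 0 and 0 and site 3 held 2, 0, 1 and 2.

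The limits of the rule were set on measured values. Just inside the 200-base limit lay Sdcbp (220 bases, 13 tags), Rnf44 (237 bases, 13 tags) and R3hdm2 (262 bases, 28 tags), and just outside it Tusc3 (180), Car2 (183) and Omg (185). Just inside 10000 bases lay Homer2 (9251), Nrgn (9227) and Gnas (8623), and just outside Pabpn1 (10688), Pcdh1 (10775) and Pum2 (11409). At the tag limit, 17 genes had 10 tags and 23 more had 9. In 16 of the 147 genes the name in the table differed from the vM21 gene at the site, among them 8 named for small RNAs that lie within a host gene.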

How the data were processed

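The authors deposited whole, unnormalized tag counts for each polyA site, listed as a single stranded base under the name of a gene. The study's methods say that tags were mapped to the genome and clustered with CTK; the submitters' processing notes name cutadapt, Novoalign and mm10. Versions, the handling of duplicate tags and of tags with several matches are not given in the sources used here. Only sites with at least 1 tag are listed. Here, sites were grouped by name, chromosome and strand, and genes were kept at a span of 200 to 10000 bases and at least 10 tags. The members, lists and tests were chosen with earlier results of these data known. Most distal and most proximal counts of 256 genes were fitted with edgeR 4.0.16 (quasi-likelihood, library as a term, library totals as sizes, Benjamini-Hochberg), checked on simulated data; DESeq2 1.42.0 was an alternative. Shares have 95% Wilson intervals (scipy 1.17.1), and differences over libraries an exact sign-flip permutation test. Positions were annotated with GENCODE vM21, and sequence was read from GRCm38 (pysam 0.24.0). Named genes were the 12 with the most tags, those called, those differing between libraries, the 5 with the most sites, 3 inside each limit, those the study names, and 2 to 4 of each list; others were named after their values were seen, and a few genes are not reported here. The labels do not say that the libraries are separate animals, and the p-values measure the spread between them. Depth was 5947 to 16017 tags per library, so most single genes have wide errors.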

Additional observations from a re-analysis of the deposited data

Results flagged for a closer look

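Of 64 values tested over the 4 libraries, 10 had a library whose gap to the nearest other, as a share of the whole range, exceeded Dixon's 95% critical value for 4 samples, where chance alone flags about 1 in 20. For 5 of them 3 libraries were equal, so that the gap is the whole range (1) and rests on 1 tag or 2: the distal share of Dlg4 (4.44% in library 1, 0 in the others), Chn1 (4.55% in library 4, 0 in the others), Hpcal4 (95.2% in library 1, 100% in the others), Calm2 (80.0% in library 2) and Kif1a (83.3% in library 3). The percent of library tags stood apart for Agap2 (0.348% in library 2 against at most 0.0999%; gap 0.834), Sv2a (0.0908% in library 2; 0.885), Eef1a2 (0.121% in library 2; 0.910), Rn45s (0.353% in library 3; 0.929) and Kif1a (0.0499% in library 1 against at least 0.0984%; 0.865). Library 2 was the one that stood apart in 4 of the 10. The cause was not tested.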

How the results depend on the processing

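Over 74 values recomputed for the main comparisons, 39 kept their direction and their size within the spread between libraries, the counting interval or 1.5 times a count. The distal share (68.6%) was 59.6% without sites with 6 A in a row downstream and 54.1% over all sites of the gene, both chosen after seeing the data; under the other alternatives it ran from 64.8% (at least 5 tags) to 73.3% (annotation gene in place of the name), and without single libraries from 66.5% to 70.6%. Genes called over the table (15), tandem genes with more distal tags (7) and tandem genes with more proximal tags (2) came to 30, 17 and 2 with DESeq2, where 144 genes had no adjusted p, to 20, 11 and 2 with TMM library sizes, to 8, 3 and 2 with no minimum of tags, to 44, 23 and 3 with at least 20 tags, and to 34, 11 and 9 with the most distal site against all others. Without the library term (no replicate block) they were 100, 35 and 15; the labels give 1 group, so that the numbers pair no groups. Leaving out single libraries gave 0 to 7, 0 to 2 and 0 to 2 calls. Of 200 values recomputed for 50 named genes without single libraries, 31 lost a call, all of the 9 called genes, and none gained one or turned a called direction; the cause was not tested beyond the smaller number of libraries. Tandem genes whose distal share differed between libraries numbered 2, 4 with sites seen in more than 1 library, and 1 to 2 without single libraries. The signal hexamer stood at 46.9% of most proximal sites, 19.0% in the 50 bases upstream alone and 32.7% for AATAAA alone. At most distal sites it stood at 86.4%, 25.9%, 74.8% and, for sites seen in more than 1 library, 92.0%. The difference of 39.5 percentage points fell to 6.80 in the upstream window, since listed positions lie at the hexamer. The share of tandem tags and the difference from sites over 10 kb apart moved by less than their SD. Depth limits single genes: 51 of the 147 had 20 or more tags.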
